A study of Bos taurus with 5 samples.

Results

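The 75C library came from peripheral blood leukocytes of crossbred cattle with 75 percent Holstein and 25 percent Iranian native ancestry, and it was set against the library labelled purebred H. Loci were taken from the 75C and H rows of the deposited pairwise comparisons, and a locus was kept when its mean over the 2 libraries was at least 1 FPKM (fragments mapped to a transcript, divided by its length in kilobases and scaled to library size). This kept 13907 of 31898 loci and 26866 of 72812 transcripts. The locus just inside this limit had a mean of 1.001 FPKM and the one just outside a mean of 0.9995 FPKM. The series holds 5 libraries, 1 for each population. The others are purebred N, 50CSN (native sire, Holstein dam) and 50CSH (Holstein sire, native dam), both with 50 percent of each breed. What the letters N and H stand for is not spelled out, and H is taken here as Holstein, the parent breed that the series' design names. The labels give no age, sex, generation or parents for the 75C animals, and do not say whether a library was made from 1 animal or from several. No treatment is given for any population.

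Holstein is a dairy breed selected for milk yield, and crossing it with local cattle is meant to combine that yield with local adaptation. Animals of 75 percent Holstein ancestry carry, on average, more Holstein than native alleles. Blood leukocytes are a mixture of neutrophils, lymphocytes, monocytes and other cells. Their expression profile follows both the share of each cell type and the activity of genes within it. In such a bulk sample, fewer cells of a type and less RNA per cell cannot be told apart.

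With 1 library a side, no difference between 75C and H has a replicate check and no test across samples was made. Differences are given on the log2(FPKM + 1) scale as 75C minus H, which understates the change of low loci. Read totals are not given in the tables, so no counting error could be attached to a value. The files name a locus by an Ensembl transcript ID, where it has one, and do not pair the IDs with gene names. Loci are therefore described by chromosome and position, with the start counted from 1 and the genome build not given in the sources used here. A span is that of a group of transcripts, and several loci can share it. For the same reason the leukocyte label could not be checked against marker genes, and no marker of a cell type could be read. The summed FPKM was 843353 in 75C and 733855 in H. Mitochondrial loci took 5.70 percent of it in 75C and 5.67 percent in H, unannotated loci shorter than 300 nt took 18.3 and 14.2 percent, and the 20 highest loci of each library took 27.1 and 22.8 percent.

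Most loci stood at nearly the same level in both libraries. The median difference was 0.03, and 68 percent of loci lay between -0.28 and 0.31. At least 2-fold apart were 507 loci, 3.65 percent of those kept: 235 were higher in 75C (1.69 percent) and 272 were lower (1.96 percent). The counts depended on the pseudocount, with 417 higher and 479 lower for 0.1 in place of 1, and at 4-fold or more 57 were higher and 47 lower. Of the 10 pairs that the 5 libraries form, only 50CSH and 50CSN had fewer such loci, 420. The pair of 75C and 50CSN had 508, 75C and 50CSH had 517, and H and N had 525. The other pairs had more: 75C and N had 711, and the pairs of H or N with a 50 percent cross had 841 to 883. These pairs share libraries, and their counts are given side by side only. The locus just past the 2-fold limit on the higher side stood at 1.44 FPKM in H and 3.88 in 75C, and the one just short of it at 2.84 and 6.67 FPKM. On the lower side the corresponding loci stood at 13.7 FPKM in H and 6.37 in 75C, and at 31.5 and 15.3 FPKM.

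**Figure D1:**
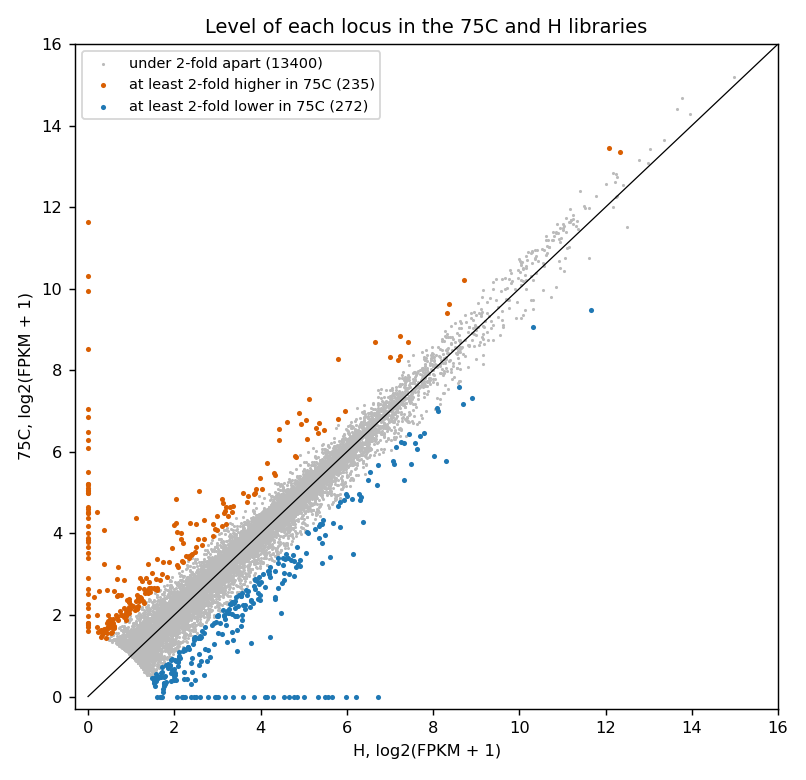
Level of each of the 13907 kept loci in the H library (x axis) and the 75C library (y axis), both as log2(FPKM + 1); the line marks equal levels. The 235 loci at least 2-fold higher in 75C (orange) and the 272 lower (blue) lie on either side of a narrow diagonal, and 79 loci listed at 0 in one library lie on an axis.

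The split between higher and lower loci varied with the kind of locus. Loci with an Ensembl ID and a span of at least 1000 nt, the bulk of the known genes, were more often lower in 75C (164 of 11365, 1.44 percent) than higher (90, 0.792 percent). Shorter annotated loci had 19 of 272 higher and 14 lower. Among all 2270 loci without an Ensembl ID 126 were higher and 94 were lower, but those of at least 1000 nt had 50 of 1563 higher and 55 lower. Of those of at least 300 nt and under 1000 nt, 44 of 516 were higher (8.53 percent) and 22 were lower (4.26 percent). Of those under 300 nt, 32 of 191 were higher (16.8 percent) and 17 were lower (8.90 percent), with a median difference of 0.16. The summed FPKM of such loci also differed between the libraries, as given above, and its part in these counts was not tested. The short loci had a median of 42.4 FPKM in 75C and 32.2 in H, against 41.0 in N, 34.1 in 50CSN and 32.5 in 50CSH. Loci with several transcripts were also more often lower (147 of 10134) than higher (62), whereas single-transcript loci were more often higher (173 of 3773) than lower (125).

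**Figure D2:**
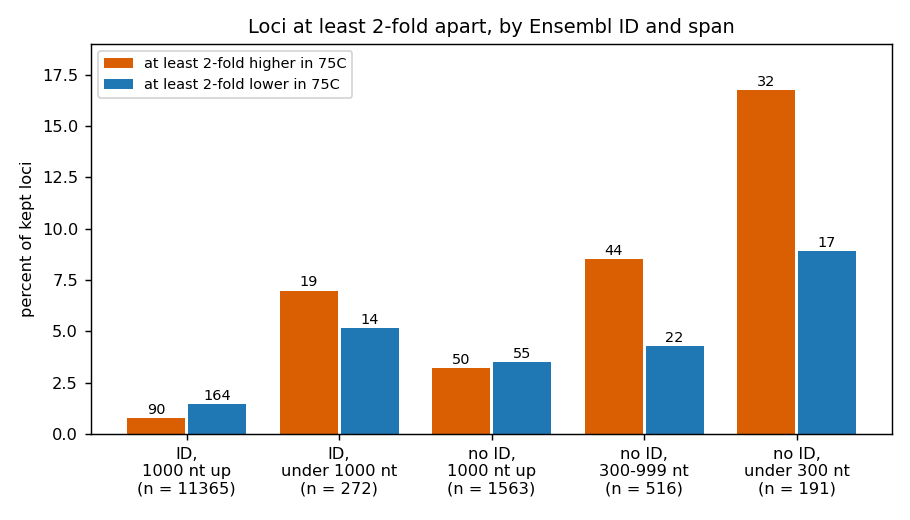
Percent of kept loci at least 2-fold higher (orange) or lower (blue) in 75C than in H, by the presence of an Ensembl ID and the span of the locus; the number over each bar is the count of loci. Annotated loci of at least 1000 nt have more lower than higher loci, and unannotated loci under 300 nt have the highest percentages, 16.8 higher and 8.90 lower.

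Among annotated loci above 0 in both libraries, 80 were at least 2-fold higher in 75C. The 12 highest of them lay on 10 chromosomes. First came ENSBTAT00000054099 on chromosome 9, between 40676200 and 40949439. It was at 0.161 FPKM in H, 21.9 in 75C, 74.8 in N, 56.5 in 50CSN and 150.6 in 50CSH. H was thus the low library of the 5 at this locus, and the span is shared by 8 loci. The second, on chromosome 9 from 91239245 to 91344892 (4 transcripts), was at 16.1 FPKM in 75C and 12.9 in N and under 0.5 FPKM in the other 3 libraries, with 0.297 in H. On chromosome 21, between 45764779 and 45773401, the locus stood at 19.8 FPKM in 75C and 18.2 in N, against 1.15 in H, 1.28 in 50CSN and 3.94 in 50CSH. At both of these loci 75C and N were the high libraries and H and 50CSN were low.

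At some loci 75C stood above all other libraries. On chromosome 18, from 44398883 to 44400892, 75C stood at 8.59 FPKM and the other 4 libraries at 0.203 to 0.772 FPKM. A locus of chromosome 5 with 8 transcripts and 4 Ensembl IDs, from 114694562 to 114963596, was at 27.7 FPKM in 75C, 12.4 in N, 3.12 in H, 2.81 in 50CSN and 2.71 in 50CSH. On chromosome 26, from 21430741 to 21455210, the single transcript reached 309.3 FPKM in 75C, the highest of the 5 libraries, against 54.6 in H and 110.4 to 132.0 FPKM in the other 3. Here H was the lowest library, and the 75C level was 5.66-fold that of H. On chromosome 14, from 64829665 to 64830135, 75C at 4.99 FPKM lay above H at 0.187 FPKM but below N at 20.3 FPKM, 50CSN at 6.91 FPKM and 50CSH at 22.4 FPKM. The other 5 of the 12 lay on chromosomes 4, 5, 10, 17 and 19, with differences of 1.99 to 2.48.

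The chromosome 19 locus of these, in a span of 14 loci between 8734352 and 8883076, read 32.1 FPKM in 75C and 4.91 in H, against 12.3 in N, 5.77 in 50CSN and 8.08 in 50CSH. On chromosome 10, between 13105679 and 13121342, 75C at 154.9 FPKM and N at 134.1 FPKM stood above H at 33.8 FPKM and 50CSN at 19.97 FPKM, and 50CSH was listed at 0. The short locus of chromosome 17 between 31205689 and 31205946 divided the libraries differently, with H low at 20.6 FPKM and the others between 59.7 and 93.2 FPKM. The second chromosome 5 locus of the 12, between 9702289 and 9756326, was highest in 75C at 5.10 FPKM, with 2.59 FPKM in 50CSH, 1.27 in 50CSN, 0.405 in N and 0.348 in H. Where the mean reached 50 FPKM, 1 more locus without an Ensembl ID was among the 6 highest outside unplaced sequence, on chromosome 3 between 43058846 and 43059040. It stood at 412.9 FPKM in 75C, 296 in 50CSH, 190 in N, 151 in 50CSN and 100.2 in H. The 12 loci therefore had no common order of the libraries beyond that of H and 75C, by which they were chosen.

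At least 2-fold lower in 75C were 155 annotated loci above 0 in both libraries. Lowest was ENSBTAT00000010615, a 3-transcript locus of chromosome 4 between 109624151 and 109825320, at 69.8 FPKM in H and 10.3 in 75C. N stood at 7.69 FPKM, 50CSN at 14.7 FPKM and 50CSH at 34.5 FPKM, so that H was the highest library. Another locus of the same span, which holds 10 loci, was among the 12 highest, at 5.05 FPKM in 75C and 0.519 in H. The deposited values divide reads between such loci by a model, and neither value can be read apart from its neighbours.

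On chromosome 19, 3 loci were also among the 12 lowest. From 13849726 to 13863414 (ENSBTAT00000028567) the level was 260.5 FPKM in H and 58.9 in 75C, with 114.4 in N, 27.8 in 50CSN and 37.1 in 50CSH. From 14238538 to 14343531 it was 12.8 FPKM in H and 1.47 in 75C, with 58.2 in N, 40.3 in 50CSN and 6.30 in 50CSH. From 27060170 to 27109667 it was 159.1 FPKM in H and 38.4 in 75C, with 44.3 in N, 12.04 in 50CSN and 14.7 in 50CSH. H was the highest library at the first and the last of these, and N at the other. The same order, with H highest, N next and the crossbred libraries low, held on chromosome 28 from 44474579 to 44521474, at 41.9 FPKM in H, 18.6 in N, 8.64 in 75C, 4.12 in 50CSH and 3.45 in 50CSN. It held as well on chromosome 18 from 34744264 to 34755512, at 9.26 FPKM in H, 4.72 in N, 1.60 in 75C, 1.27 in 50CSH and 0.661 in 50CSN.

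At some others of the 12 lowest, 75C was below all other libraries. This held at the unplaced locus and the chromosome X locus given next, but not at the chromosome 10 locus after them. On an unplaced contig, Un.004.2779, between 9375 and 10205, 75C stood at 53.7 FPKM, and the other 4 libraries lay between 201.4 and 312.8 FPKM, with H the highest. On chromosome X, between 6439858 and 6440172, 75C was at 0.445 FPKM and the others were at 2.84 to 5.77 FPKM, with 5.43 FPKM in H. On chromosome 10, between 69182032 and 69182437, H was at 81.9 FPKM and 75C at 18.5 FPKM, while N stood at 30.97 FPKM, 50CSN, the lowest library there, at 13.4 FPKM and 50CSH at 32.2 FPKM. All 3 loci spanned under 1000 nt. Where the mean reached 50 FPKM, another of the 6 lowest lay on chromosome 11 between 108061858 and 108065538, at 179 FPKM in H, 50.8 in 75C, 35.6 in N, 25.4 in 50CSN and a listed 0 in 50CSH.

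The libraries that did not enter the choice of loci were summarised in the same way. Over the 80 higher loci the median was 2.02 FPKM in H and 8.69 in 75C, and N lay at 4.65 FPKM, 50CSN at 5.02 FPKM and 50CSH at 4.13 FPKM. Over the 155 lower loci the median was 12.7 FPKM in H and 4.48 in 75C, and N lay at 8.48 FPKM, 50CSN at 4.78 FPKM and 50CSH at 4.15 FPKM. The choice of loci fixes the order of H and 75C in both sets. At the lower loci the median of N lay between those of H and 75C, and the medians of the 50 percent crosses were close to that of 75C. With a mean of at least 10 FPKM, 30 loci were higher and 69 were lower, and at the 69 the medians were 41.9 FPKM in H, 28.4 in N, 16.2 in 75C, 15.3 in 50CSN and 12.9 in 50CSH.

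**Figure D3:**
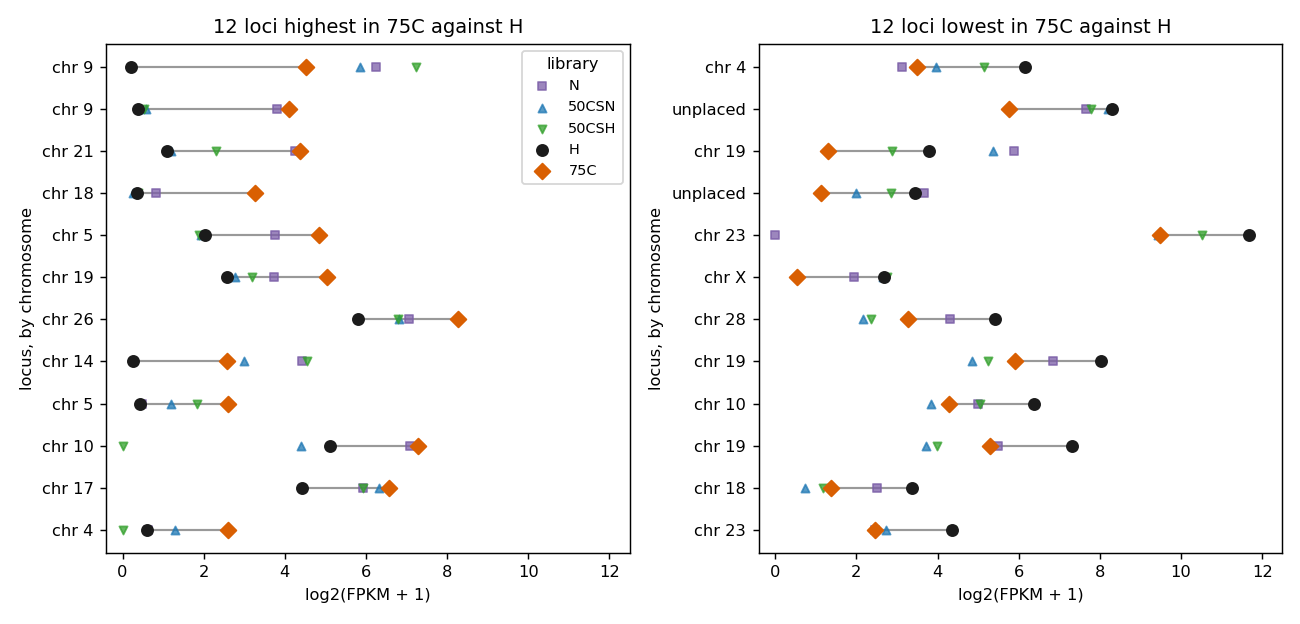
Levels, as log2(FPKM + 1), of the 12 annotated loci highest (left) and the 12 lowest (right) in 75C against H among those above 0 in both; each row is a locus named by its chromosome, each point a library, and the grey line joins H (black circle) and 75C (orange diamond). At the second and the third rows on the left N lies beside 75C, and at the rows of chromosomes 28 and 18 on the right both 50 percent crosses lie at or below 75C.

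The authors' deposited table marks 28 transcripts as significant between H and 75C, 0.0758 percent of the 36962 it tested. All 28 carry the same p-value of 5e-05 and q-value of 0.0430 in the authors' deposited table. With 1 library a side, these values do not measure the spread between animals. Of these, 19 were above 0 in both libraries, and all 19 were lower in 75C. Another 5 were listed at 0 in H and stood at 0.797 to 5.27 FPKM in 75C. The last 4 were listed at 0 in 75C and stood at 0.765 to 104.6 FPKM in H. Among all tested transcripts above 0 in both libraries, 1379 were at least 2-fold higher in 75C and 1528 were at least 2-fold lower. Transcripts that far apart were thus present in both directions among those tested. The level of H over that of 75C at the 19 ranged from 2.22-fold to 6.39-fold, with a median of 3.49-fold. Their median was 31.96 FPKM in H, 16.4 in N, 10.4 in 75C, 9.74 in 50CSN and 8.11 in 50CSH.

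By position, 4 of the 19 lay on chromosome 7 and 3 on chromosome 19, the latter including transcripts of both loci described above from 13849726 and from 27060170. Within chromosome 7, 3 of the transcripts marked in the authors' deposited table lay within 1 Mb of each other. Between 15788602 and 15803571 the level was 78.5 FPKM in H, 27.3 in 75C and 3.73 in N. From 15945853 to 15983650 it was 19.1 FPKM in H and 5.28 in 75C. From 16318284 to 16354275 it was 16.3 FPKM in H, 5.46 in 75C and 11.6 in N. In all 3 both 50 percent crosses lay below 75C, as in 50CSH at 18.6, 3.21 and 4.57 FPKM. The most abundant transcript marked in the authors' deposited table, on unplaced sequence Un.004.9784, was at 1181 FPKM in H and 364 in 75C, while its locus as a whole differed by -0.82 (1278 and 726 FPKM). On chromosome 10, between 66634042 and 66637823, a marked transcript was at 403 FPKM in H and 128.5 in 75C, with 184 in N, 169 in 50CSN and 166 in 50CSH. On chromosome 20, between 22370049 and 22375212, H alone was high, at 116.3 FPKM, and the other 4 libraries lay between 32.9 and 37.1 FPKM. On chromosome 18, between 52856391 and 52863158, N was above both, at 37.7 FPKM against 12.6 FPKM in H and 3.60 FPKM in 75C. H was thus the highest library at the first of these and at the second, and not at the last. The lowest ratio of the 19, 2.22-fold, was on chromosome 20 between 30446778 and 30513273, with H at 23.2 and 75C at 10.4 FPKM. Of the 28 marked transcripts, 24 belonged to loci that were at least 2-fold apart as a sum. The count of 24 was made without the limit of 1 FPKM on the mean, and some of these loci lay below it. At a single-transcript locus the sum is the marked transcript itself, so the count is no separate check there. Of the 19, 4 were at single-transcript loci and 15 at loci with several transcripts, where the marked transcript is part of the sum.

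**Figure D4:**
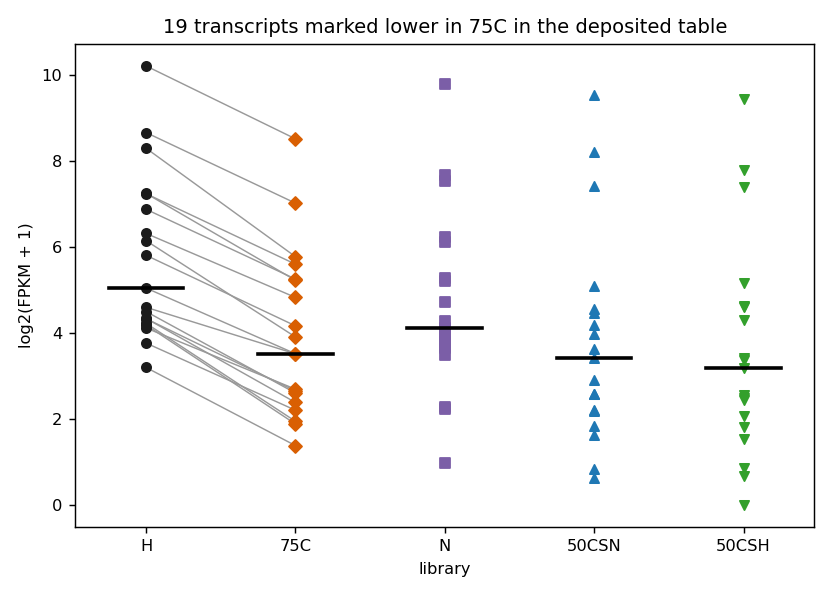
Levels, as log2(FPKM + 1), of the 19 transcripts that the authors' deposited table marks as significant between H and 75C and that are above 0 in both; points are transcripts, bars are medians over the 19, and grey lines join H and 75C. Every line descends from H to 75C, and the medians are 31.96 FPKM in H, 10.4 in 75C, 16.4 in N, 9.74 in 50CSN and 8.11 in 50CSH.

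The most abundant annotated loci stood higher in 75C as a group, by an amount that depended on the scaling of the libraries. There were 145 whose mean reached 500 FPKM, and 72.4 percent of them had a difference above 0, against 55.2 percent of all annotated loci. The median difference was 0.33, or 0.05 after the libraries were given the same distribution of values by quantile normalization. Their median level was 1459 FPKM in 75C, 1235 in H, 1097 in N, 1687 in 50CSN and 1459 in 50CSH. Apart from a locus listed at 0 in H, the highest difference among them was 0.78, on chromosome 18 from 1296010 to 1489592, at 1146 FPKM in 75C and 665 in H. Against this direction, on chromosome 5 the locus between 48015303 and 48065411 stood at 532.2 FPKM in 75C and 1286 in H, with 1076 in N, 609 in 50CSN and 427 in 50CSH. On chromosome 19, a locus from 13904532 to 13927472 lay near the lower locus from 13849726 described above. There 75C was at 1725 FPKM and H at 3150 FPKM, with 2497 FPKM in N, 2321 in 50CSN and 1758 in 50CSH.

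Unannotated loci under 300 nt held several of the highest single values. On chromosome 5, between 41316973 and 41317083, the level stood at 11124 FPKM in 75C and between 3278 and 4698 FPKM in the other 4 libraries, with 4357 in H. On chromosome 3, from 104213405 to 104213517, it was 26363 FPKM in 75C, 14064 in H, 9763 in N, 18735 in 50CSN and 12479 in 50CSH. 75C was the highest of the 5 libraries at both. FPKM is divided by transcript length, so a given value at such short loci takes fewer reads than at a long locus. Read totals are not given, so the number of reads behind these values is not known.

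The mitochondrial chromosome encodes subunits of the respiratory chain together with its own ribosomal and transfer RNAs. The median difference over its 4 loci was 0.21 as deposited and -0.10 after quantile normalization, so its direction depended on the scaling. As deposited, 14 of its 17 kept transcripts were higher in 75C and none was 2-fold apart, with differences from -0.51 to 0.53. Its largest locus stood at 37332 FPKM in 75C, within the range of N and the 50 percent crosses, and at 32043 in H, below that range.

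Lower and higher loci were also counted along the chromosomes. Of all kept loci, 1.69 percent were higher and 1.96 percent were lower. Chromosome 5 held the most higher loci of any chromosome, 22 of 756 (2.91 percent). Chromosome 19, which also had the most kept loci, held the most lower ones, 22 of 778 (2.83 percent). It was followed by chromosome 18 with 20 of 765 (2.61 percent). By share, chromosomes 20 (2.82 percent), 4 (2.78 percent) and 23 (2.68 percent) lay close to chromosome 19 and above chromosome 18. On chromosome 25, 1 of 492 loci was higher and 2 were lower. Of 574 windows of 1 Mb with at least 8 kept loci, that of chromosome 5 from 109 to 110 Mb held the most higher loci, 7 of 18, with none lower and a median difference of 0.75. The windows and blocks were chosen with earlier results of these data known, and their counts are a description.

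Within that window 4 of the 7 higher loci lay side by side, from 109237926 to 109270868, and had no Ensembl ID. Between 109237926 and 109260040 the level was 20.5 FPKM in 75C, 6.89 in H, 4.52 in N, 9.70 in 50CSN and 3.90 in 50CSH. From 109260141 to 109260454 it was 13.5 FPKM in 75C, 3.45 in H, 1.45 in N, 9.84 in 50CSN and 4.00 in 50CSH. The annotated locus from 109308744 to 109311181 stood at 22.05 FPKM in 75C, 9.06 in H, 2.89 in N, 8.27 in 50CSN and 3.41 in 50CSH. At all 3 loci 75C was the highest library of the 5 and N was lower than H. The lowest difference of the window, short of 2-fold, was at the locus from 109174688 to 109210153, with 7.18 FPKM in 75C and 13.5 in H.

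On chromosome 10, which carries the T cell receptor alpha and delta genes of cattle, the window from 23 to 24 Mb held 5 higher loci of 18 and none lower. Between 23247195 and 23247774 the level was 18.2 FPKM in 75C, 3.10 in H, 2.22 in N, 8.02 in 50CSN and 7.68 in 50CSH. From 23501758 to 23502470 it was 30.9 FPKM in 75C, 13.7 in H, 3.75 in N, 17.7 in 50CSN and 24.5 in 50CSH. The locus from 23981041 to 24004113 was listed at 0 in H and stood at 6.45 FPKM in 75C, 23.4 in N, 5.45 in 50CSN and 23.8 in 50CSH. Of the 5, 3 were thus highest in a library other than 75C or H, counting the locus between 23461907 and 23462434 at 12.1 FPKM in 50CSN, 4.64 in 75C and 0.687 in H, and the one between 23534480 and 23776235 at 4.799 FPKM in N, 4.07 in 75C and 1.27 in H. In the next window 3 of 16 were higher and 2 were lower. There, between 24480880 and 24481969, H stood alone at 17.6 FPKM, against 1.77 in 75C, 1.03 in N, 1.01 in 50CSN and a listed 0 in 50CSH. The block from 20 to 26 Mb as a whole had 10 higher (8.62 percent) and 6 lower (5.17 percent) of 116, with a median of 0.06. The files do not say which of these loci are receptor segments.

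**Figure D5:**
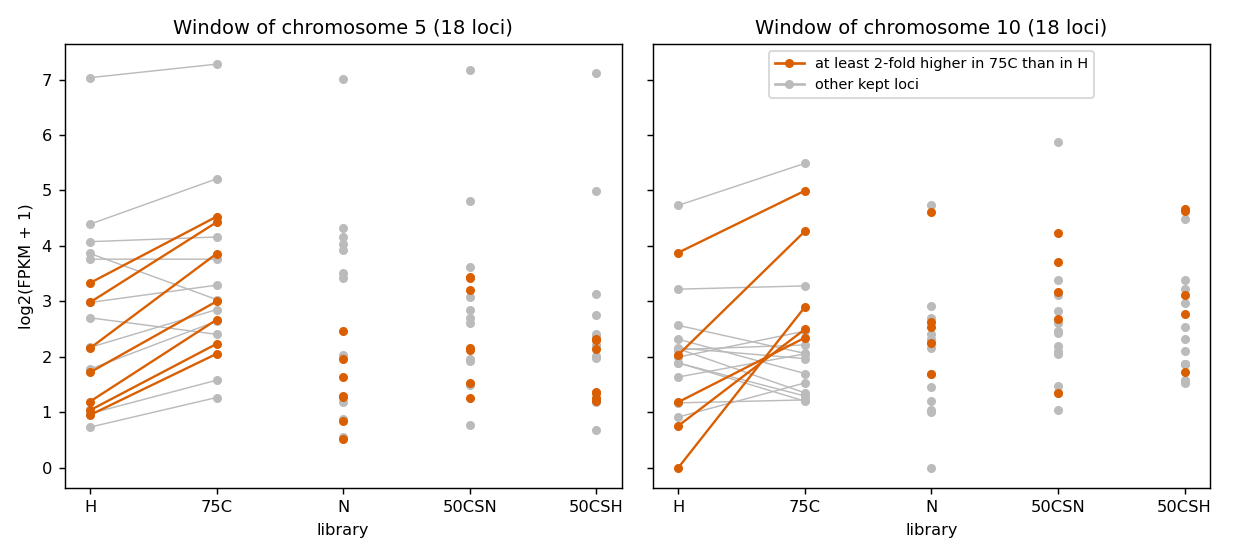
Levels, as log2(FPKM + 1), of the 18 kept loci in each of the 1 Mb windows of chromosome 5 (left) and chromosome 10 (right) with the most loci at least 2-fold higher in 75C; points are loci, lines join H and 75C, and orange marks those at least 2-fold higher. The 7 orange loci on the left and the 5 on the right were chosen for the difference between H and 75C, and the other 3 libraries were not used in that choice.

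No window held more than 4 lower loci, and 10 windows held at least 3, against 7 windows with at least 3 higher loci. On chromosome 19 from 58 to 59 Mb, 4 of 23 were lower and none was higher, with a median of -0.27. The most abundant of the 4 was at 50.2 FPKM in H and 18.02 in 75C, from 58640585 to 58653184, with 33.8 in N, 11.2 in 50CSN and 14.6 in 50CSH. A neighbouring locus without an Ensembl ID, from 58653350 to 58653773, was at 21.7 FPKM in H, 5.88 in 75C, 7.19 in N, 4.59 in 50CSN and 3.62 in 50CSH. Both were highest in H. On chromosome X from 55 to 56 Mb 4 of 29 were lower, and on chromosome 13 from 53 to 54 Mb 3 of 14, with a median of -0.46.

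Blocks on chromosomes that carry immune gene families in cattle are set beside the 1.69 percent of all loci that were higher and the 1.96 percent that were lower. In the block of chromosome 23 from 25 to 32 Mb, on the chromosome of the major histocompatibility complex, 4 of 166 loci were higher (2.41 percent) and 7 were lower (4.22 percent), with a median of -0.03 and a summed level of 17738 FPKM in 75C and 23858 in H. The distal part of chromosome 18 from 60 Mb, on the chromosome of the leukocyte receptor complex, had 4 higher (2.92 percent) and 5 lower (3.65 percent) of 137. In the distal part of chromosome 4, the chromosome of the T cell receptor beta genes, 5 of 150 were higher (3.33 percent) and 8 were lower (5.33 percent). The distal part of chromosome 5 from 95 Mb had 14 higher (5.07 percent) and 2 lower (0.725 percent) of 276, with the 7 higher loci of the window described above among the 14. On chromosomes 21 from 65 Mb and 17 from 70 Mb, whose chromosomes carry immunoglobulin heavy and lambda chain genes, the counts were 0 higher and 1 lower (2.44 percent) of 41, and 1 higher (0.909 percent) and 5 lower (4.55 percent) of 110.

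A large part of the lower sum on chromosome 23 came from 2 loci. One, in a span of 4 loci between 27808462 and 27884733, was at 3261 FPKM in H and 715 in 75C. It was at 690.2 FPKM in 50CSN and 1459 in 50CSH, and was listed at 0 in N. Its value cannot be read apart from the other loci of its span. The other, whose span ran from 28472237 to 28685278, was at 5799 FPKM in H and 2912 in 75C, with 3184 in N, 4533 in 50CSN and 4177 in 50CSH. That span held 15 loci, 10 of them kept, and its sum was 7923 FPKM in 75C and 10977 in H, a difference of -0.47 in the sum. Inside it 2 loci were at least 2-fold higher in 75C, one at 325 against 149 FPKM and one at 27.6 against 7.66 FPKM, and 1 was lower, at 4.47 against 19.3 FPKM. Some loci of the span carry the same Ensembl ID as another of its loci, as do 1109 of all kept loci with some other locus, and whether reads of near-identical copies were divided alike in the 2 libraries was not tested.

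Loci of unplaced sequence were apart more often than the 1.69 and 1.96 percent of all loci. Of 893, 57 were higher in 75C (6.38 percent) and 31 were lower (3.47 percent), and 22 of these 88 had an Ensembl ID. An ID was present at 518 of the 893. Of these 518, 11 were higher and 11 lower, against 109 and 178 of all 11637 annotated loci. Among all 2270 loci without an ID, 5.55 percent were higher and 4.14 percent were lower. The part of missing IDs in the unplaced counts was not tested. On one contig, Un.004.309, all 5 kept loci were higher. Between 28275 and 28878 the level was 123.5 FPKM in 75C, 28.5 in H and 29.7 in 50CSH. From 37404 to 37584 it was 106.1 FPKM in 75C, 23.4 in H and 30.7 in 50CSH. From 37878 to 38103 it was 19.1 FPKM in 75C, 5.48 in H and 5.76 in 50CSH. All 3, and another locus from 42093 to 42558, were listed at 0 in both N and 50CSN, so the contig divided the libraries in the same way at 4 neighbouring loci. The remaining one, from 58460 to 151914, was above 0 in every library, at 3.02 FPKM in 75C and 0.706 in H. The contig was singled out after its values were seen.

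An exact 0 in such tables can be a failed estimate, and loci listed at 0 in one of the 2 libraries were set apart. There were 79, with 43 listed at 0 in H and 36 in 75C; 77 of them had a single transcript and 48 shared a span with another locus. At 15 of the 48 the sum over the whole span was also at least 2-fold apart in the same direction. The highest value was 3189 FPKM in 75C, on chromosome 19 between 39265919 and 39591013, where all 4 other libraries were listed at 0. The span as a sum was at 3259 FPKM in 75C and 60.3 in H, and at 64.8 to 77.0 FPKM in the other 3 libraries. On chromosome 8, in the span from 81409228 to 81422924, 75C was at 985 FPKM and the 4 other libraries were listed at 0, and on chromosome 23, from 16989973 to 17004118, the values were 368 FPKM and 0 in the same libraries. The authors' deposited table gives these 3 transcripts p-values of 0.222, 0.203 and 0.122 and marks none of them. Among the transcripts of all 79 loci it marks 4.

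Other listed zeros were shared with further libraries. On chromosome 12, from 28069409 to 28069528, H and 50CSH were listed at 0, and 75C stood at 1275 FPKM, 50CSN at 1496 FPKM and N at 312 FPKM. On unplaced sequence Un.004.15, from 537424 to 537591, 75C, N and 50CSN were listed at 0, and H stood at 104.6 FPKM and 50CSH at 186.9 FPKM. This transcript is among those that the authors' deposited table marks as significant. On chromosome 2, from 110657725 to 110685359, a locus at 49.2 FPKM in H was listed at 0 in the other 4, but the sum of its span was 409.5 FPKM in 75C and 444.03 in H. The zero in 75C there left the span as a whole nearly level.

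Per transcript, more values were apart than per locus. At least 2-fold higher in 75C were 1168 transcripts (4.35 percent) and at least 2-fold lower were 1338 (4.98 percent). Of these 2506 transcripts, 1957 belonged to loci whose sum was under 2-fold apart, and 291 loci held both a transcript that was at least 2-fold higher and one that was at least 2-fold lower. Among 7285 loci with several transcripts and at least 5 FPKM in both libraries, 827 had another leading transcript in 75C than in H (11.4 percent). The lead was often narrow: in 158 of the 827 the leading transcript was over 10 percentage points ahead of the next in both libraries, and in 7 it was over 50 points ahead in both. The leading transcript of H lost at least 25 percentage points of its locus in 75C at 237 loci (3.25 percent) and gained as much at 77. The leader was chosen on H, which favours losses, so these 2 counts are not compared.

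The largest loss of share was on chromosome 21 from 28009468 to 28012871, where 1 transcript held 99.5 percent of the locus in H and 0.0467 percent in 75C. The other transcript held 99.95 percent in 75C, 84.4 percent in N, 99.7 percent in 50CSN and 99.8 percent in 50CSH. The locus as a sum was at 35.4 FPKM in H and 37.9 in 75C, so H differed from the other 4 libraries in its leading transcript and hardly from 75C in its level. On chromosome 11 from 89715840 to 89804990 the leading transcript of H held 98.6 percent there, 97.97 percent in 50CSN and 8.13 percent in 75C, and under 1 percent in N and 50CSH. The libraries thus lay on either side at a locus whose sum stayed between 8.52 and 10.1 FPKM. On chromosome 25 from 28797688 to 28818143 the leading transcript of H held 99.97 percent there, 22.9 percent in 75C and under 1 percent in N, 50CSN and 50CSH. 75C was the only library of the 5 in which 2 transcripts exceeded 20 percent. On chromosome 29 between 44316583 and 44319220 the leading transcript of H held 83.3 percent there, 71.7 percent in 50CSH, 61.7 percent in N and 15.1 percent in 50CSN, and 0.00115 percent in 75C. The same ranking of 75C below all others was seen on chromosome 7 between 42115902 and 42827995, where a transcript that held 68.2 to 76.8 percent in the other 4 libraries was listed at 0 in 75C. In its place 1 transcript listed at 0 in the other 4 held 48.4 percent in 75C. In the span of chromosome 23 from 28472237, the leading transcript of a 3-transcript locus held 94.1 percent in H and was listed at 0 in the other 4 libraries, and in 75C another transcript held the whole locus.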

How the data were processed

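RNA of peripheral blood leukocytes was selected with oligo-dT and sequenced as paired ends, per the labels' protocols, which name no step that marks strand. The submitters' processing notes list TopHat2 2.0.9 and Cufflinks 2.2.1.0. Their settings, the annotation and the build: not given in the sources used here. FPKM values were deposited by the authors per assembled transcript for 10 pairs of libraries, with a log2 fold change, a test score, a p-value and a q-value per the file headers; each library's FPKM was identical in every pair. Values of H and 75C were read by population name and summed per locus, and differences of log2(FPKM + 1) were described with no test. The calculation was tested on simulated data. Positions are counted from 1. None of the 31460 Ensembl transcript IDs matched a gene symbol, so the gene and marker lists could not be read, and no sequence was used.

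Named loci were the 12 highest and 12 lowest annotated loci above 0 in both libraries, 6 each way with a mean of at least 50 FPKM, 5 each way listed at 0, 6 each way of the marked transcripts, 6 loci with the largest loss of the leading transcript's share, and the 20 most abundant loci. They are given in part. Loci of windows, of the abundant group and of 1 contig were named in addition. The members, lists, windows and blocks were chosen with earlier results of these data known. Alternatives were another pseudocount, filter, scaling, fold and set of loci. Read totals are not given, so no interval for counting error is given. The comparison of pooled populations was not used here. The software was Python 3.11.15 with pandas 2.3.3, numpy 2.4.6 and, for plots, matplotlib 3.10.9.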

Additional observations from a re-analysis of the deposited data

How the results depend on the processing

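Counts of loci at least 2-fold higher and lower in 75C were 235 and 272 of 13907. They were 417 and 479 of 13907 with a pseudocount of 0.1. They were 119 and 158 of 9559 with a mean of at least 5 FPKM, and 109 and 178 of 11637 with an Ensembl ID. At 1.5-fold they were 717 and 899, and at 4-fold they were 57 and 47, where more loci were higher than lower. Both counts stayed within 1.5 times with no filter (277 and 312 of 21657), with median-of-ratios scaling or quantile normalization, and above 0 in both libraries. The same held without short unannotated loci and with sums over shared spans (189 and 211 of 11717). The last was chosen after seeing the data, as were the alternatives for single loci, windows, blocks and groups of loci. The median difference of 0.03 became -0.000106 with median-of-ratios scaling, which sets the centre to 0 by construction. Transcripts at least 2-fold higher and lower, 1168 and 1338 of 26866, were 1935 and 2161 of 26866 with a pseudocount of 0.1. They were 1874 and 2024 of 51708 with no filter, and 264 and 323 of 12230 with a mean of at least 5 FPKM. Loci with another leading transcript were 257 of 3260 (7.88 percent) at 20 FPKM or more in both libraries. At 5 FPKM or more they were 827 of 7285 (11.4 percent). The leading transcript of H lost at least 25 percentage points at 237 of the 7285. This is another measure, because a transcript can lose that share and still lead.

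Under quantile normalization, which gives both libraries the same distribution, the median of the annotated loci of at least 500 FPKM was 0.053, that of the mitochondrial loci -0.10, and 6 of the 20 most abundant loci changed sign. These were 2 loci of chromosome 10 (-0.036 and -0.43), a locus of chromosome 8 (-0.23), a mitochondrial locus (-0.40) and 2 unplaced loci (-0.38 and -0.37), the first of which was at -0.026 with median-of-ratios scaling. No replicate could be left out with 1 library a population. No paired analysis was possible because each population has 1 library and the labels carry no replicate numbers.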
